A study of Mus musculus with 4 samples.

Results

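The genes described here encode costimulatory and immune checkpoint molecules, the surface proteins through which antigen-presenting cells and T cells regulate each other, together with the inhibitory receptors that restrain myeloid cells. They were measured by RNA-seq in BV-2 cells, an immortalised mouse microglial line. The 10 genes were Cd28, Cd80, Cd86, Cd40, Cd274, Pdcd1lg2, Icosl, Cd200r1, Cd47 and Sirpa, out of 23783 named genes in the table. The set was selected on the level of Cd28, whose fold change between LPS and control was among the lowest of all genes, so the values of Cd28 between the groups are a description and carry no test. The other 9 genes were listed for their function.

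A first group of BV-2 cells received LPS for 4 h at 10 ng/ml, and the second was a control labelled with the same 4 h, with 2 libraries in each group. LPS, lipopolysaccharide, is a component of the outer membrane of Gram-negative bacteria that acts through Toll-like receptor 4. All samples are labelled as this 1 cell line, although the growth text also describes shaking of mixed glial cultures. The labels do not say whether replicate libraries came from separate cultures, so the p-values measure the spread between these libraries, which may be technical. The comparison asks how LPS changes the transcripts of this line.

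T cells need a costimulatory signal besides antigen. CD28 on the T cell receives it from CD80 and CD86, ICOS receives it from ICOS ligand, and PD-1 receives an inhibitory signal from PD-L1 and PD-L2. CD40 on the antigen-presenting cell is engaged by CD40 ligand on helper T cells. Restraint of myeloid cells comes from the CD200 receptor and from SIRP-alpha, whose ligand CD47 is a "do not eat me" signal, and microglia are known to be held quiet by neuronal CD200 and CD47.

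The totals were 3368693 and 3082538 counts in the LPS libraries and 2778686 and 3059196 in the control libraries. The 5 most abundant records took 53.4% to 67.5% of each library, and the smallest remainder, 902176 counts, was that of control replicate 1. Normalised counts are the deposited counts scaled to the mean of the 4 effective library sizes, and 1 count was worth 0.844 to 1.41 normalised counts. Of the microglia and macrophage markers, 13 of 19 passed the filter on low counts, and the list summed to 10569 and 10212 normalised counts in the LPS libraries and 11385 and 9702 in the controls. Itgam, the macrophage integrin CD11b, has several records and was at 0, and P2ry12, a purinergic receptor of microglia, had 0 to 5 counts per library. Markers of T cells (18 genes), B cells (6), astrocytes (7), oligodendrocytes (7) and neurons (6) did not reach the filter in any gene. Of these, 7 T cell, 2 astrocyte, 3 oligodendrocyte and 4 neuron markers have several records. Genes with several records seldom reached the filter, so their low counts do not show absence. Of 8 dendritic cell markers, Itgax and Batf3 reached the filter, with neither past the threshold in edgeR, DESeq2 or limma-voom and both at an unadjusted p below 0.05. Of the microglia and macrophage list, Spi1, the myeloid transcription factor PU.1, rose (log2 fold change 1.15, adjusted p 0.00391 in edgeR's quasi-likelihood test).

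Of the 10 genes, 7 passed the count filter and entered the fit over 6981 records. LPS raised Icosl at an adjusted p below 0.05. Cd200r1 was lower in both LPS libraries, and it entered the fit only through the controls, where it was high. Cd274 and Cd47 were higher in both LPS libraries than in both controls without passing the test, and Cd86 and Sirpa had overlapping groups. The controls alone would not have brought Cd274 into the fit, which it entered with the LPS libraries, where it was high. Cd80 and Pdcd1lg2 had a few counts per library, and Cd40 had none. Over all records tested 5.53% passed, 3.82% as higher and 1.7% as lower. With the dependence on GC and transcript length removed, 440 records were higher and 340 lower, against 267 and 119 without that step. Since the set was built on a result of the same contrast, its calls are not read against that background.

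**Figure D1:**
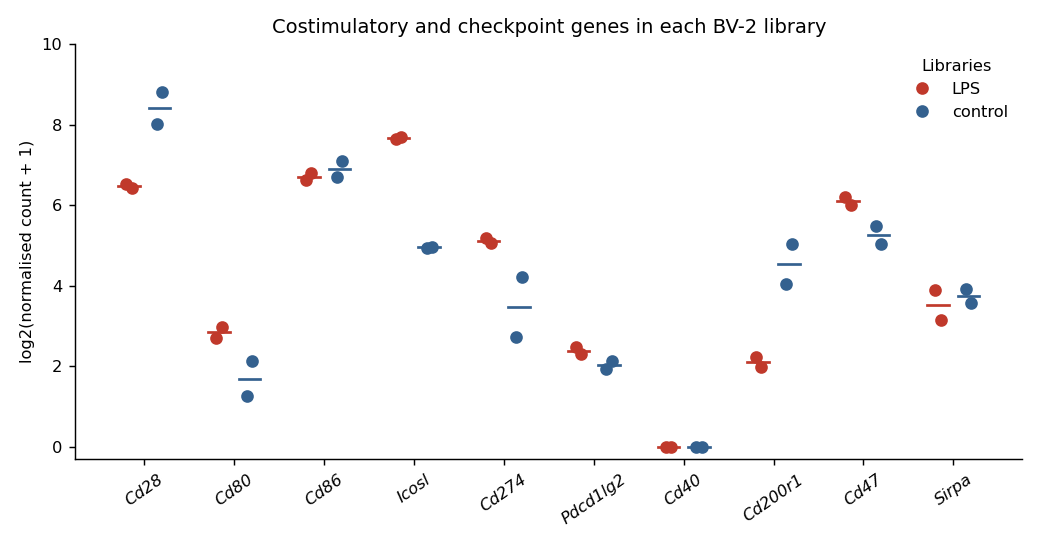
Levels of the 10 genes in each library, as log2(normalised count + 1) on the vertical axis. Points are libraries and bars are group means, with LPS left of control in each pair. The LPS and control points of Icosl and of Cd28 lie far apart in opposite directions, those of Cd86 and Sirpa overlap, and Cd40 lies at 0 throughout.

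Cd28 encodes the costimulatory receptor of T cells (NM_007642, chromosome 1, 60746388 to 60773359 on GRCm38). It had 91.5 and 85.1 normalised counts in the LPS libraries, against 256 and 449 in the control libraries. Both LPS libraries were low and close together, the controls were high and differed by 1.75-fold, and the groups did not overlap. The means were 88.3 ± 4.56 after LPS and 352 ± 136 in controls (SD, n = 2 each), a fitted log2 fold change of -2.01. This ranked 32 of 6981 records from the lowest log2 fold change, next to Tst at -2.05. Among the 2547 records with a control mean of at least 100 normalised counts it ranked 4, between Rin2 at -2.51 and Etv5 at -1.95. That cut was made on the controls, where Cd28 was high, and the LPS mean of Cd28 lay below 100. This rank is therefore a description only. Against control replicate 2 alone the log2 fold change was -2.34, and against control replicate 1 alone it was -1.54.

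Cd28 in BV-2 cells was counted without a like level of the genes that usually accompany it in T cells. Its raw counts were 99 and 87 in the LPS libraries and 182 and 532 in the control libraries. The whole list of 18 T cell markers summed to 19.4 and 14.7 normalised counts in the LPS libraries and 15.5 and 16.9 in the control libraries. In all 4 libraries 10 of these markers were at 0 counts, among them Cd3e and Cd3g, subunits of the T cell receptor complex, and Cd4 and Thy1, each of which has a single record. The T cell marker sum was at most 19.4 normalised counts in a library, while Cd28, with a single record, was at least 85.1. Of the 18 markers, 11 have 1 record and 7 have several, so the sum may be too low. Among coding genes 6.34% of those with 2 or more records were tested, against 40.7% of those with 1. The 8 dendritic cell markers summed to 38.8 and 39.1 normalised counts in the LPS libraries and 56.3 and 68.4 in the controls, and their part in the level of Cd28 was not tested. In such bulk libraries fewer cells with a transcript and less of it per cell cannot be told apart.

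The relatives of Cd28 on chromosome 1 were scarcely counted. Ctla4, an inhibitory receptor for CD80 and CD86, lies 135665 bases from Cd28 and had 0 counts in each library over its 2 records. Icos, the receptor for ICOS ligand, had 4 and 4 counts in the LPS libraries and 3 and 8 in the control libraries, a rate ratio of 0.655 with an exact 95% interval of 0.229 to 1.79 that covers counting error only. Pdcd1, which encodes PD-1, had 2 counts in each LPS library and 1 in each control library. For Icos and Pdcd1 no difference was detectable at this depth. How reads shared by records were counted is not given in the sources used here, so the 0 of Ctla4 does not show that its transcript was absent. The records whose pattern over the 4 libraries lay nearest to that of Cd28 were Hdac9, Abcd2, Snx30, Ctdsp2 and Nr0b2, with Euclidean distances of 0.196 to 0.453 between centred values of log2(normalised count + 1). Hdac9, a histone deacetylase gene and the nearest, had 8.32 and 8.80 normalised counts in the LPS libraries and 23.9 and 42.2 in the control libraries.

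Icosl encodes ICOS ligand, the B7 family protein that engages ICOS on activated T cells (NM_015790, chromosome 10, 78069368 to 78079525). It had 199 and 206 normalised counts in the LPS libraries, against 29.5 and 30.4 in the control libraries. Replicates lay close together in both groups, and the groups were far apart. The means were 203 ± 5.35 after LPS and 30.0 ± 0.598 in controls (SD, n = 2 each), and the log2 fold change was 2.75 (SE 0.240, adjusted p 2.57e-05). Under the alternative settings the log2 fold change lay between 2.72 and 2.79.

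The bases before the annotated start of Icosl are shown because it is the gene of this set that rose. The sequence covers 250 bases up to the start (RefSeq, GRCm38.p6, chr10:78069118-78069367, plus strand), and capitals mark a match to the NF-kB (kappaB) consensus of 10 bases on the minus strand, 111 to 102 bases before the start.

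Icosl: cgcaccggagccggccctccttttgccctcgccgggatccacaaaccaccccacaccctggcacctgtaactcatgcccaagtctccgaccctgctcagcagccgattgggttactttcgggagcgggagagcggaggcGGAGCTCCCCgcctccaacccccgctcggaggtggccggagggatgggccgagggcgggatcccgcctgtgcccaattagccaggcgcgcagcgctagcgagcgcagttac

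Windows of this kind were found for 5 of the 10 genes, and both strands were searched. The kappaB consensus had a match in 7.25% of 32851 such windows. The other motifs searched were the interferon-stimulated response element (2.98% of windows), TTCNNNGAA of STAT sites (7.02%), TGANTCA of AP-1 (6.75%), TGACGTCA of CREB (1.55%) and GAGGAAGT of PU.1 (2.44%). No matches overlapped one another. A match is a description of the letters and not evidence of binding.

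Cd86, the B7 ligand of CD28 and CTLA-4 that antigen-presenting cells carry at rest (NM_019388, chromosome 16, 36568956 to 36666158), had 97.1 and 110 normalised counts in the LPS libraries, against 103 and 136 in the control libraries. The groups overlapped. The log2 fold change was -0.22 (SE 0.232, adjusted p 0.804). With the trend on GC content and length removed it was -0.41 (SE 0.158, adjusted p 0.128), which did not pass.

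Cd80, the second B7 ligand of CD28 (NM_009855, chromosome 16, 38457430 to 38495958), had 6 and 7 counts in the LPS libraries, against 1 and 4 in the control libraries. These counts were under the filter. Their rate ratio was 2.34 with an exact 95% interval of 0.784 to 8.39, and the fit without a filter gave an adjusted p of 0.670. At this depth a change of Cd80 was not detectable. Its upstream window held an AP-1 match 42 to 36 bases before the start, and the windows of Cd47 held no match. For both genes the start used by the RefSeq table lies inside the annotated span of the gene.

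**Figure D2:**
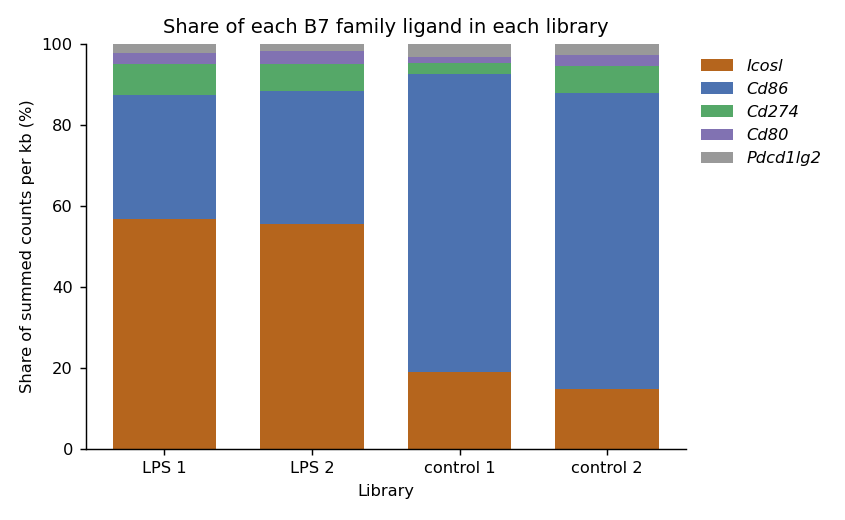
Share of each B7 family ligand gene in their summed normalised counts per kilobase, in percent on the vertical axis, for each library. Icosl made up 56.7% and 55.6% in the LPS libraries and 19.1% and 14.7% in the controls, and Cd86 made up 30.7% and 32.7% in the LPS libraries and 73.5% and 73.1% in the controls.

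Per length, the leading B7 ligand transcript differed between the groups. Divided by transcript length, the level of Icosl was 70.6 and 73.3 normalised counts per kilobase in the LPS libraries, against 10.5 and 10.8 in the controls. Cd86 stood at 38.2 and 43.1 per kilobase in the LPS libraries and at 40.4 and 53.5 in the controls. Icosl therefore lay above Cd86 in both LPS libraries and below it in both control libraries. The 5 ligand genes Icosl, Cd86, Cd274, Cd80 and Pdcd1lg2 summed to 125 and 132 normalised counts per kilobase in the LPS libraries, against 55.02 and 73.2 in the controls.

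Cd274 encodes PD-L1, the main ligand of PD-1 (NM_021893, chromosome 19, 29362107 to 29388095). It had 35.1 and 32.3 normalised counts in the LPS libraries, against 5.63 and 17.7 in the control libraries. Both LPS libraries lay above both controls, and the controls differed by 3.15-fold. Cd274 reached the filter level in 2 LPS libraries and in 1 control library. The controls alone would not have admitted it, so a difference was partly built into its entry to the fit. The log2 fold change was 1.39 (SE 0.432, adjusted p 0.107), so the difference did not pass. Without control replicate 2, the higher control for this gene, the log2 fold change was 2.55, with 1 control left. The difference did pass without a filter (adjusted p 0.00506) and with the trend on GC content and length removed (log2 fold change 1.31, adjusted p 0.0329). Over all records these 2 settings called 365 and 440 as higher, against 267 in the main fit, so they pass more records in general. In DESeq2 the adjusted p of Cd274 reached 0.384. An exon of the gene overlaps an antisense gene in GENCODE M21, and the strand setting of the counting is not given in the sources used here, so reads of the pair may not be told apart.

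Pdcd1lg2 encodes PD-L2, the other PD-1 ligand (NM_021396, chromosome 19, 29410919 to 29472927), and begins 22823 bases after the end of Cd274 with no annotated gene between them. It had 5 and 4 counts in the LPS libraries, against 2 and 4 in the control libraries, a rate ratio of 1.35 with an exact 95% interval of 0.430 to 4.61. The fit without a filter gave an adjusted p of 0.877, and no difference was detectable at this depth. Rgmb, another PD-L2 binding partner, was tested and did not pass (log2 fold change 0.37, adjusted p 0.866).

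The upstream bases of these neighbours are given side by side because the pair lies in 1 locus and was counted at different levels. Each covers 250 bases on the plus strand of GRCm38.p6 from RefSeq, chr19:29367188-29367437 for Cd274 and chr19:29410669-29410918 for Pdcd1lg2. Capitals mark a kappaB consensus match in Pdcd1lg2, 244 to 235 bases before the start. For Cd274 the start used by the RefSeq table lies inside the annotated span of the gene. The letters of the 6 motifs searched were not in the Cd274 window.

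Cd274: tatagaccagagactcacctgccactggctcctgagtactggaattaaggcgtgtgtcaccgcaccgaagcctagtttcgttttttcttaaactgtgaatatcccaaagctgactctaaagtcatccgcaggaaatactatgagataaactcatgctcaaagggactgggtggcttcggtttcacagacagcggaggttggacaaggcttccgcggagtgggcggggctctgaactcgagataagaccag

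Pdcd1lg2: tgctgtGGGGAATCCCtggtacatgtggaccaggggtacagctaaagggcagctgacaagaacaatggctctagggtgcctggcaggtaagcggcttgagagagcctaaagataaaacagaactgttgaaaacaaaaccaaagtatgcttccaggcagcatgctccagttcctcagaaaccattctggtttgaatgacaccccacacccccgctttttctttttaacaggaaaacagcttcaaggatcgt

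Cd40 encodes the receptor through which helper T cells activate antigen-presenting cells (chromosome 2, 165055614 to 165071654). All 5 of its records had 0 counts in each of the 4 libraries. Only if its reads were counted in full does this limit it to 3 counts, or 2.53 to 4.22 normalised counts, per library. Cd40lg, its ligand gene, was also at 0. The number of records bears on how a 0 can be read. Among coding genes with 1 record 40.7% had a record in the test, against 4.03% of those with 5 or more. Gapdh, a glycolytic gene that all cells use, has 2 records and had 6 and 7 counts in the LPS libraries and 2 and 5 in the control libraries on the larger of them. Itgam, also with 2 records, was at 0. How reads shared by several records were counted is not given in the sources used here, so the 0 of Cd40 does not show that its transcript was absent.

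**Figure D3:**
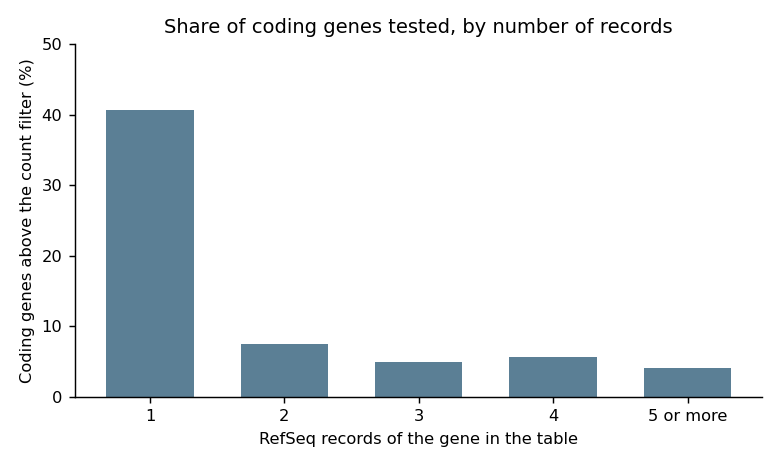
Percentage of coding genes with at least 1 record above the count filter, on the vertical axis, by how many RefSeq records the gene has in the table. The bar for genes with 1 record stands at 40.7%, and the bars for genes with more records at 7.48%, 4.95%, 5.60% and 4.03%.

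Genes of CD40 signalling were tested in 10 of 23 cases, of which 4 rose and 2 fell, against 3.82% higher and 1.7% lower over all records tested. The lists were chosen with earlier results known, so nothing is read from their counts. Of the 12 genes in this list with several records, none reached the filter, among them Traf2, Traf3, Nfkb2, Relb and Tnfaip3. Traf1, a TNF receptor adaptor, had 400 and 404 counts in the LPS libraries, against 0 and 2 in the controls, a rate ratio of 362 with an exact 95% interval of 99.9 to 2996, and passed the filter only through the LPS libraries. Birc3, a ubiquitin ligase bound to TRAF proteins, Nfkb1, which encodes the p105 and p50 NF-kB proteins, and Rel, which encodes c-Rel, rose by 1.91, 1.55 and 1.58 on the log2 scale. Map3k1, a kinase of the JNK pathway, and Traf3ip3, a TRAF3-binding protein gene, had log2 fold changes of -1.24 and -1.22 and fell. Over the 10 genes the median was 0.22, against -0.01 over all records tested. These genes serve other receptors as well as CD40.

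Leaving out LPS replicate 1 put the adjusted p of Map3k1 at 0.189 and that of Traf3ip3 at 0.159. Leaving out LPS replicate 2, it stood at 0.155 for Map3k1, 0.293 for Traf3ip3 and 0.129 for Rel, and DESeq2 gave 0.0686 for Traf3ip3 and 0.0989 for Rel. Over the alternatives it ran from 2.64e-07 to 0.189 for Map3k1, from 5.66e-07 to 0.293 for Traf3ip3 and from 9.18e-06 to 0.129 for Rel. The log2 fold change of Rel was 2.27 without control replicate 2. That of Traf1, fitted against near-absent control counts, was 7.74 without control replicate 1 and 11.5 without control replicate 2.

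Cd200r1 encodes the receptor for CD200, an inhibitory receptor of myeloid cells (NM_021325, chromosome 16, 44765736 to 44794977). It had 3.70 and 2.93 normalised counts in the LPS libraries, against 15.5 and 32.1 in the control libraries. The LPS libraries were near the limit of counting, with 4 and 3 raw counts against 11 and 38 in the controls, and the groups did not overlap. It passed the count filter only through the controls, the group where it was high, so a difference was built into its entry to the fit. Within that limit the log2 fold change was -2.87 (SE 0.564, adjusted p 0.00979), and in the fit without a filter it was -2.84 (adjusted p 1.55e-06). The rate ratio of the summed counts was 0.129, with an exact 95% interval of 0.0492 to 0.286. Without control replicate 2 the log2 fold change was -2.18 and the adjusted p was 0.0647, within a range of 1.3e-07 to 0.0647 over the alternatives.

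Genes of the same family sit beside Cd200r1 and have similar sequences that may share reads, so their counts are uncertain. They were named after their values were seen. Cd200r4 had 35.1 and 48.9 normalised counts in the LPS libraries, against 66.1 and 105 in the controls (log2 fold change -1.06, adjusted p 0.0781). Cd200r2 had 6.47 and 5.87 in the LPS libraries, against 14.1 and 14.3 in the controls (log2 fold change -1.19, adjusted p 0.242). For neither gene did the groups overlap, and neither passed. Cd200, the gene of the ligand, was at 0 in each library.

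Cd47 encodes the ligand of SIRP-alpha (NM_010581, chromosome 16, 49851328 to 49912503). It had 73.0 and 63.6 normalised counts in the LPS libraries, against 43.6 and 32.1 in the control libraries. Both LPS libraries lay above both controls, and the log2 fold change of 0.88 (SE 0.279, adjusted p 0.115) did not pass. Without control replicate 1 it was 1.10 with an adjusted p of 0.00143, and over the alternatives the adjusted p ran from 0.00143 to 0.746.

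Sirpa encodes SIRP-alpha, the inhibitory receptor for CD47 on myeloid cells (chromosome 2, 129591042 to 129632228). Of its 6 records 5 were at 0 throughout, and the remaining one, NM_001291020, had 13.9 and 7.82 normalised counts in the LPS libraries, against 14.1 and 11.0 in the control libraries. The groups overlapped, and the log2 fold change was -0.16 (SE 0.475, adjusted p 0.947). As with Cd40, the several records limit what this level says of the gene, and related SIRP genes may share its reads. Thbs1, which encodes thrombospondin-1, another ligand of CD47, had 8 and 8 counts in the LPS libraries, against 0 and 1 in the controls.

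**Figure D4:**
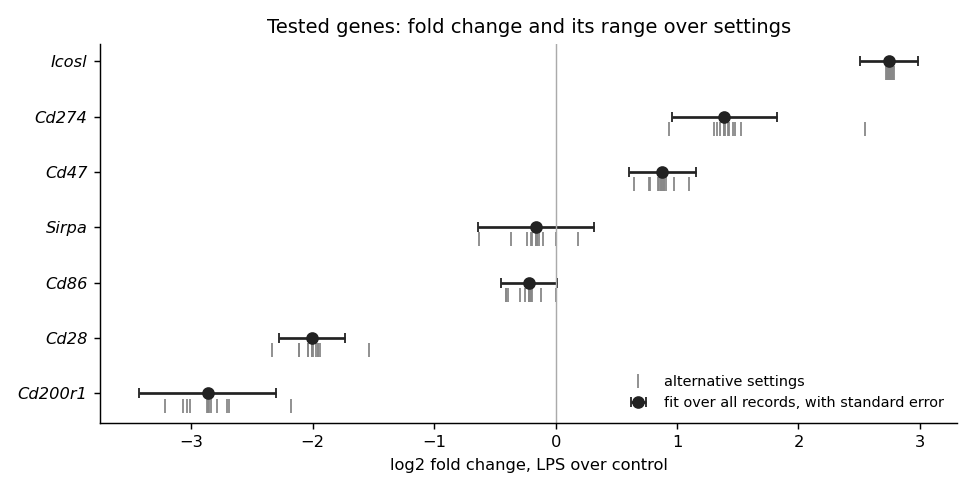
Fitted log2 fold change of LPS over control for the 7 genes tested, with its standard error (points and bars) and the values under the alternative settings (grey ticks). The ticks of Icosl all lie between 2.72 and 2.79, while those of Cd274 run from 0.93 to 2.55 and those of Cd200r1 from -3.22 to -2.18.

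Cd28, on which the set was selected, and Cd200r1, which passed the filter only through the controls, are left aside here. Icosl, Cd274 and Cd47 had both LPS libraries above both controls, and Cd86 and Sirpa overlapped. The entry of Cd274 depended on the LPS libraries, where it was high, so its place here is a description. Over all records tested 43.4% had groups that did not overlap, 21.4% with both LPS libraries above and 21.9% with both below. Non-overlap with 2 libraries a group is thus common in this table.

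The controls differed from each other by base composition. The log2 ratio of control replicate 2 over control replicate 1 had a Spearman rho of -0.66 with the GC content of the transcript across 6956 records, where records are not independent replicates, and the ratio of the LPS libraries had one of -0.27. The transcripts of Cd28 (41.2% GC), Cd200r1 (41.4%) and Cd274 (44.9%) lie below the median of 49.9% over tested records and were 1.75-fold, 2.07-fold and 3.15-fold higher in control replicate 2 than in control replicate 1. Cd47, at 42.2% GC, was at 0.736 of control replicate 1, and Icosl, at 52.5% GC, at 1.03. Cd86, at 43.2% GC, was at 1.32 of control replicate 1, and Sirpa, at 53.0% GC, at 0.780. With the trend on GC content and length removed, the log2 fold change was -2.11 for Cd28, -3.07 for Cd200r1, 1.31 for Cd274, 0.85 for Cd47 and 2.74 for Icosl. It was -0.41 for Cd86, against -0.22 in the main fit, and -0.10 for Sirpa.

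Ordered by normalised counts per kilobase, the levels of the single-record genes after LPS were 71.98 for Icosl, 40.7 for Cd86, 20.3 for Cd28, 13.01 for Cd47, 9.30 for Cd274, 3.64 for Cd80, 2.59 for Pdcd1lg2 and 1.75 for Cd200r1. In the controls the order was Cd28 at 81.1, Cd86 at 47.0, Cd200r1 at 12.6, Icosl at 10.6, Cd47 at 7.21, Cd274 at 3.22, Pdcd1lg2 at 1.88 and Cd80 at 1.41. Neighbours in the LPS order did not overlap between libraries, except that Sirpa, which has several records, lay between Cd80 and Pdcd1lg2 and overlapped both. Among controls the span of Cd200r1 overlapped those of Icosl and Cd47, and the spans of Cd274, Pdcd1lg2 and Cd80 overlapped one another.

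Other genes of costimulation and inhibition were read from 7 lists holding 164 genes, of which 160 had a record and 49 were tested. Of these, 11 rose and 3 fell, beside 5.53% called over all records tested, and Traf1 and Bcl10 among the 11 passed the filter only through the LPS libraries. The median log2 fold change over the 49 was 0.05, against -0.01 over all records tested. None of 11 further B7 and CD28 family genes with a record reached the count filter. Of these, 4 have several records, which limits what their low counts say. In the CD2, SLAM and nectin list 2 of 5 tested genes rose, against 3.82% higher over all records tested. Icam1, an adhesion ligand of T cell LFA-1, had 1013 and 920 normalised counts in the LPS libraries, against 207 and 156 in the controls (log2 fold change 2.42, SE 0.206). Pvr, which encodes CD155, a ligand of TIGIT and CD226, had 142 and 132 in the LPS libraries, against 70.3 and 70.1 in the controls (log2 fold change 0.97, adjusted p 0.0251). Without LPS replicate 1 the adjusted p of Pvr was 0.416, without LPS replicate 2 it was 0.271, in DESeq2 it was 0.0921, and its lowest value was 1.74e-05. The median of that list was 0.15.

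Inhibitory myeloid receptors, their ligands and phosphatases were tested in 15 of 38 cases, with 2 rises, 1 fall and a median log2 fold change of -0.01. The shares over all records tested were 3.82% higher and 1.7% lower. Pilra, a paired inhibitory receptor, had 274 and 292 normalised counts in the LPS libraries, against 29.5 and 35.4 in the controls (log2 fold change 3.10, SE 0.237). Clec12a, an inhibitory C-type lectin, rose by 2.09 on the log2 scale. Lrp1, an endocytic receptor for calreticulin, had 66.6 and 51.8 normalised counts in the LPS libraries, against 191 and 135 in the controls, a log2 fold change of -1.45 with an adjusted p of 0.00589, which was 0.124 without LPS replicate 2 and ran from 2.9e-13 to 0.124.

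Among adaptors of CD28 and PD-1 signalling 3 of 11 tested genes rose, against 3.82% higher over all records tested, and the median was -0.13. Lcp2, the adaptor SLP-76, had 553 and 629 normalised counts in the LPS libraries, against 194 and 153 in the controls (log2 fold change 1.78, SE 0.202). Malt1 and Bcl10, partners in the CARD-BCL10-MALT1 complex that activates NF-kB, rose by 1.63 and 2.15 on the log2 scale. Bcl10 had 24 and 22 raw counts in the LPS libraries, against 6 and 3 in the controls, and passed the filter only through the LPS libraries, where it was high. Its adjusted p of 0.0369 was 0.142 without LPS replicate 1, 0.129 without LPS replicate 2, 0.118 without control replicate 2 and 0.246 in DESeq2, with a lowest value of 0.000226, and its log2 fold change was 3.06 without control replicate 1 and 1.35 without control replicate 2.

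In the list of TNF superfamily costimulation 4 of 18 genes were tested and none passed in edgeR, DESeq2 or limma-voom, with 1 at an unadjusted p below 0.05 and a median of 0.55. The 4 log2 fold changes lay between -0.33 and 0.86. In this list 1 gene was higher without a filter and 1 without control replicate 1. MHC class II presentation genes were tested in 4 of 16 cases and none passed in the same tools, with 1 at an unadjusted p below 0.05 and a median near 0. In this list 1 gene was lower without control replicate 1, without control replicate 2, with the GC and length trend removed, with the replicate number as a block, and with both. H2-Aa, H2-Ab1 and H2-Eb1, the class II chain genes, were at 0 counts in each library with a single record each.

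**Figure D5:**
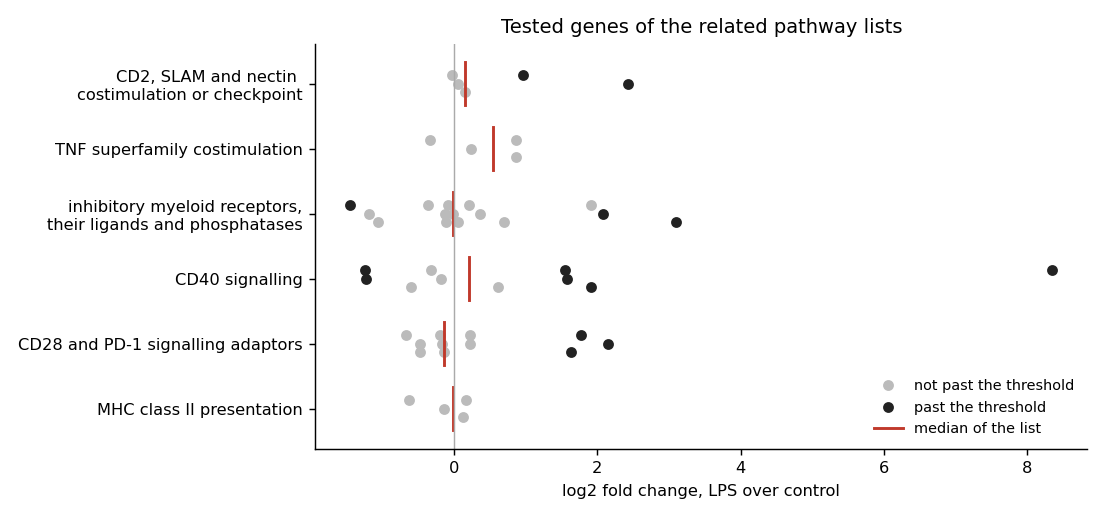
Log2 fold change of LPS over control for the tested genes of 6 related lists, 1 point per gene, with dark points past the threshold and a red bar at each list's median. The medians lie between -0.13 and 0.55, and the highest point is Traf1 at 8.35.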

How the data were processed

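Whole-number read counts for RefSeq records in 4 libraries make up the table the authors deposited. Its name calls them normalised, but library totals differ, low whole numbers have no gaps, and median-of-ratios factors lay between 0.741 and 1.22, so they entered the tests as raw counts. Libraries were directional, after ribosomal RNA removal, per the labels' protocols. Per the submitters' processing notes, the tools include HTSeq 0.6.1, TopHat2 2.0.10, Trimmomatic 0.33, CASAVA 1.8.2 and Cufflinks 2.2.1, with build mm10. The counting mode is not given in the sources used here, nor are the annotation and the strand setting.

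RefSeq tables of GRCm38.p6 gave symbols, positions and promoters, and 428 of 32915 records had no symbol. The most abundant record stood for each gene. edgeR 4.0.16 (R 4.3.3; filterByExpr with a minimum count of 10, TMM, quasi-likelihood test, no covariates) was fitted to all records, with Benjamini-Hochberg adjustment over the 6981 tested and a threshold of 0.05. It was tested on simulated data. GC content and length came from GENCODE M21 transcripts and covered 99.6% of tested records. Rate ratios have exact 95% intervals, and intervals and floors cover counting error only. The alternatives were DESeq2 1.42.0, limma-voom (limma 3.58.1), other scalings and filters, sums per gene, a replicate block, removal of the GC and length trend, and leaving out each library. The members and lists were chosen with earlier results of these data known. Named were the 10 genes, list genes past the threshold, ligand and receptor partners, and the 5 records most like Cd28; other genes named were picked after their values were seen.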

Additional observations from a re-analysis of the deposited data

How the results depend on the processing

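Of the 267 records higher and 119 lower, the count of higher records was 164 where the mean had to reach 50 normalised counts and 440 with the GC and length trend removed. The count of lower records was 209 without a filter, 54 with a mean of at least 50, 66 in the DESeq2 Wald test and 340 with the trend removed. Leaving out 1 library gave 165 to 723 higher and 39 to 581 lower records, where the remaining pair alone sets the spread. Replicate numbers are not said to pair the libraries, and deviations of same-numbered libraries had a correlation of 0.255. With the replicate number as a block, 401 records were higher and 288 lower, or 555 and 548 with the block and the trend removed.

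The shares called over all records tested were 3.82% higher and 1.7% lower, and the calls of this set are not read against them. Among the genes other than Cd28, 1 was higher and 1 lower, the latter being Cd200r1, which passed the filter only through the controls. The number higher was 2 without a filter, 2 with the trend removed, 3 with the block and 3 with both, Cd274 and Cd47 being the added genes, and 1 to 2 with 1 library left out. The number lower was 0 where a mean of at least 50 was required, since Cd200r1 was then not tested, and 0 to 1 with 1 library left out. Over the listed genes, 7 were higher with a mean of at least 50, and 0 to 7 were lower with 1 library left out, 5 with the block, 6 with the trend removed and 6 with both. Of 192 values for the 14 listed genes called, 177 kept their direction and call, 15 lost the call and 0 turned. The values near 0 changed sign, with 1 library left out: Cd86 ran from -0.39 to 0.0025 and Sirpa from -0.63 to 0.18, with 0.0014 without control replicate 1. The direction of Icosl, Cd28, Cd200r1, Cd274 and Cd47 was the same under every alternative that tested them. Their groups do not overlap and the alternatives use the same libraries, so this was largely fixed in advance and is a description only. Cd28 was also chosen for its fall, and Cd200r1 passed the filter only through the controls. Depth limits Cd80 and Pdcd1lg2, for which few counts were available. Cd40 and Sirpa have several records each, and how reads shared by records were counted is not given in the sources used here. Their few or no counts therefore cannot be put down to depth alone.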

Other observations

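Some genes of the same lists lay under the count filter with most of their counts in the LPS libraries. They were picked after their values were seen, from the listed genes that were not tested, so their intervals are descriptions. Tnfrsf8, which encodes CD30, had 12 and 9 counts in the LPS libraries, against 1 and 1 in the controls, a rate ratio of 9.46 (exact 95% interval 2.31 to 83.2). Siglece, an inhibitory sialic acid receptor of myeloid cells, had 7 and 6 counts in the LPS libraries, against 0 in both controls. With the controls together put at 3 counts and the LPS counts taken as exact, the ratio was 3.90, which is not an interval limit. The rate ratio of Thbs1 was 14.4 (interval 2.24 to 605).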
